A study of Mus musculus with 3 samples.

Results

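Rab proteins are small GTPases that mark the membranes of the secretory and endocytic routes. The 59 Rab genes described here are all those whose symbol is Rab followed by a number and at most 1 letter, out of 19938 genes with a probe set of their own on the array, and proteins that merely bind Rabs were not counted among them. The RNA came from bone marrow-derived dendritic cells of C57BL/6J mice, grown from 2000000 marrow cells per well with GM-CSF and IL-4 (20 ng/ml each) over 9 days. It was measured on 3 Affymetrix whole-transcript arrays, 1 per sample. The 3 samples form 1 group with no contrast of genotype, treatment or time. The labels do not say whether they came from separate mice or cultures, so every spread given is that between these samples and may be technical.

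A Rab protein switches between a GTP-bound form, which sits on a membrane and recruits effectors such as tethers and motors, and a GDP-bound form, which the GDP dissociation inhibitor keeps soluble. Exchange factors load GTP, GTPase-activating proteins speed its hydrolysis, and prenyl groups, added to the C terminus of new Rabs that an escort protein presents, anchor the protein. In dendritic cells Rabs direct the uptake, degradation and recycling of antigen and the delivery of MHC molecules to the surface.

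The call "above background" means here that a gene's log2 value exceeded, in each array, the 95th percentile of the 1210 olfactory and vomeronasal receptor probe sets, which lay at 5.54, 5.54 and 5.55 log2 units in replicates 1, 2 and 3. All values are log2 RMA values, the authors' normalized signal. Probe sets bind with different strength, so a higher value of 1 gene than of another is no measure of more transcript. Of the dendritic cell markers, 13 of 14 were above background, among them Itgax (11.91, 11.92 and 11.91 in replicates 1, 2 and 3) and H2-Aa (12.57 in each), and Flt3 was not. Of 44 genes restricted to other tissues, 9 (20.5%) also passed, so the call admits more than the 5% of the receptor probe sets. The macrophage markers were above background in 9 of 9 cases, and bulk RNA cannot tell fewer cells of a type from less RNA per cell. Markers of T and NK cells were above background in 11 of 14 cases and those of neutrophils in 5 of 12, against 60.5% of all genes. The neutrophil markers Ly6g (6.73, 6.80 and 4.86) and Lcn2 (7.98, 6.69 and 5.12) passed in replicates 1 and 2 and not in replicate 3.

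Of the 59 Rab genes, 49 (83.1%) were above background in every array, against 60.5% of all genes by the same rule. Another 1 passed in 1 array and 9 in none. The median log2 value was 7.64 over the 59 Rab genes and 6.12 over all genes. A mean of 9 log2 units or more was reached by 18 of the 59 (30.5%), against 10.9% of all genes. Above the stricter 99th percentile of the receptor probe sets there were 37 Rab genes (62.7%), against 46.2% of all genes. The 12 that dropped out were Rab4a, Rab13, Rab15, Rab17, Rab23, Rab26, Rab27a, Rab33a, Rab36, Rab38, Rab40b and Rab44, and they dropped out as well under a limit taken from 44 tissue-restricted genes at their 95th percentile (37 Rab genes left, against 45.6% of all genes).

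**Figure D1:**
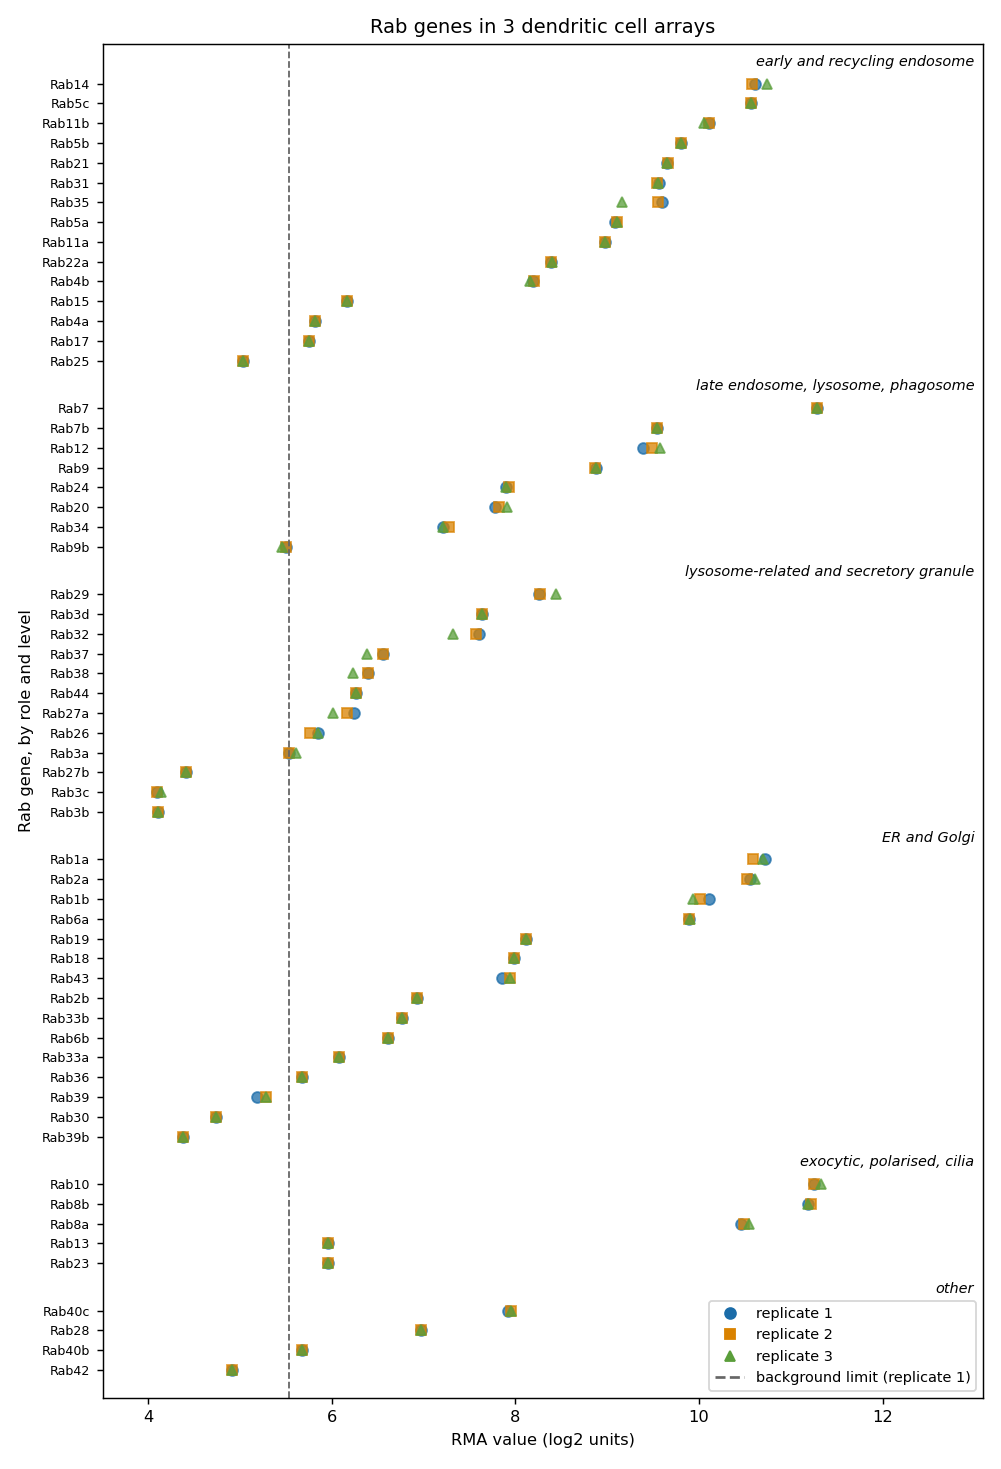
Log2 RMA value (x axis) of each of the 59 Rab genes (y axis, grouped by role), with 1 marker per array and the background limit of replicate 1 as a dashed line. The markers of the 3 arrays overlap for most genes. Rab3a lies at the line, with its replicate 3 marker (5.60) to the right, and 9 genes lie left of the line, down to Rab3b and Rab3c near 4.1.

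The promoters of the Rab genes differed in their content of CG dinucleotides, the sites of DNA methylation. They are shown for the 2 genes with the highest and the 2 with the lowest mean among those with an entry in the RefSeq promoter table (build GRCm38.p6). Each run is the 250 bases before the listed start, 5′ to 3′ on the gene's strand, with every CG in capitals.

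Rab7: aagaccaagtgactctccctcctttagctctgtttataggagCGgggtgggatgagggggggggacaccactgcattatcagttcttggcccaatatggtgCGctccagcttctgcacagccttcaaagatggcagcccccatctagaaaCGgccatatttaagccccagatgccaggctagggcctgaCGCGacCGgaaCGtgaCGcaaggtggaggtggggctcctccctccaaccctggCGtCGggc
Rab10: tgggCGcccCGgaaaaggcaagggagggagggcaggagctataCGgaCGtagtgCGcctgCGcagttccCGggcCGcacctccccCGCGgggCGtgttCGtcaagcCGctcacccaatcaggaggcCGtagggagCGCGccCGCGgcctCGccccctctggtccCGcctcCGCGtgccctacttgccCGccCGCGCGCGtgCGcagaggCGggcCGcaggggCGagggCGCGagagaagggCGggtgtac
Rab3b: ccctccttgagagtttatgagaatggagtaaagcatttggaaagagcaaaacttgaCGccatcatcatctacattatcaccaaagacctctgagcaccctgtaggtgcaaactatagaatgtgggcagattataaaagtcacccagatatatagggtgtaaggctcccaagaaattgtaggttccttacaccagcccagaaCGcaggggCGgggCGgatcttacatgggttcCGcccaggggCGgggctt
Rab3c: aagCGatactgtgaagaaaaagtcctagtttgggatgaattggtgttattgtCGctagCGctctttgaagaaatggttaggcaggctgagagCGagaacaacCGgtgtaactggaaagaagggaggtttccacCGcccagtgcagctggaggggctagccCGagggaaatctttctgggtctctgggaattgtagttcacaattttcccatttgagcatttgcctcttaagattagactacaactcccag

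Rab7 held 10 CG dinucleotides in this window at chr6:88045271-88045520 (minus strand), and Rab10 held 34 at chr12:3309970-3310219 (minus strand). Rab3b held 6 at chr4:108878820-108879069 (plus strand) and Rab3c 7 at chr13:110280207-110280456 (minus strand). Over the 48 Rab genes with an entry, the median was 18 (range 3 to 40) for the 40 above background and 8 (range 3 to 18) for the other 8, so the ranges overlap. The median was 11 over all 15614 measured genes with an entry, with 15 for those above background and 4 for the rest. The excess of CG thus followed the same order in genes at large.

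Short motifs were searched on both strands of the same windows. They were 8 in number and were chosen after the array values were seen. The letters GGGCGG, the core of the GC box, occurred in 27 of the 40 Rab promoters above background (67.5%) and in 6 of the other 8. Over all promoters the share was 46.0%, with 58.3% for genes above background and 26.1% for the rest. TATAAA, the letters of the TATA box, occurred in 1 of the 40 and in 3 of the other 8 (37.5%). The shares were 11.2% of all promoters, 6.5% of those of genes above background and 18.8% of the rest. Matches counted on either strand and at any distance from the start, so they need not be working TATA boxes. CCAAT was held by 18 of the 40 and 4 of the other 8, against 35.5% of all promoters and 35.6% of those of genes above background. CACGTG, the E-box bound by the lysosomal regulator TFEB among others, was held by 4 of the 40 (10.0%) and 0 of the other 8, against 7.03% of all promoters and 8.29% of those of genes above background. Those 4 were Rab5a, Rab20, Rab21 and Rab23. GAGGAAG, a form of the site of the myeloid factor PU.1, occurred in 5 of the 40 (12.5%) and 0 of the other 8, against 10.3% of all promoters and 11.0% of those of genes above background. CCGGAAG, a site of other ETS factors, occurred in 3 of the 40 (7.5%) and 0 of the other 8, against 9.63% of all promoters and 13.4% of those of genes above background. The cyclic AMP response element TGACGTCA was held by 1 of the 40 and 1 of the other 8, against 2.12% of all, and the consensus NF-kB site by 0 of either, against 0.134% of all. The GC box, the E-box, CCGGAAG and the cyclic AMP element each contain a CG and so overlap with the counts above. These matches are descriptions of the windows and no evidence of binding.

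**Figure D2:**
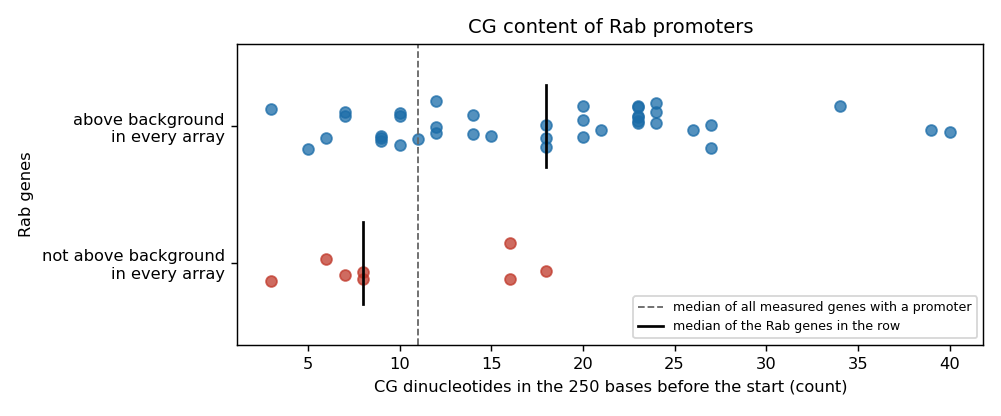
Number of CG dinucleotides in the 250 bases before the start (x axis) for 40 Rab genes above background in every array (upper row) and 8 that were not (lower row), 1 point per gene with vertical scatter for visibility. The row medians (solid bars) are 18 and 8, and the dashed line marks the median of 11 over all measured genes with a promoter.

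The Rabs of early and recycling endosomes were above background in 14 of 15 cases, and in 11 of 15 under the stricter limit. The shares of all genes were 60.5% and 46.2%. Rab5 proteins drive the fusion of early endosomes, and all 3 of their genes passed. Rab5a had 9.09, 9.11 and 9.11 in replicates 1, 2 and 3, whereas Rab5b (9.81) and Rab5c (10.57) had the same value in each array. Rab14, which acts between early endosomes and the Golgi and on phagosomes, had 10.61, 10.58 and 10.74. Rab21 (9.65, 9.66 and 9.65), which traffics integrins, and Rab31 (9.56, 9.55 and 9.55), a relative of Rab5 at the Golgi and early endosomes, were nearly equal in the 3 arrays. Rab22a, which recycles MHC class I molecules, had 8.39, 8.39 and 8.40.

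Of the recycling Rabs, Rab11a had 8.98 in each array and Rab11b 10.11, 10.11 and 10.05. Rab11b had a second probe set, at 6.09, 6.10 and 5.80, which was 4.09 log2 units lower on average, so its level depends on the probe set chosen. The annotation gives both to Rab11b and does not show which of them measures its transcript, so no level is settled for this gene. Of the pair for fast recycling, Rab4b had 8.20, 8.20 and 8.16 and passed both limits. Rab4a had 5.82 in each array and passed the first limit only. Rab15 (6.16 in each array) and Rab17 (5.75 in each) lay close to the limit too. Rab25, an epithelial relative of Rab11, was the only gene of this group not above background, at 5.03 in each array.

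Late endosomal, lysosomal and phagosomal Rabs passed in 7 of 8 cases under either limit, against 60.5% and 46.2% of all genes. Rab7, which brings late endosomes and phagosomes to lysosomes, had 11.29 in each array. Its relative Rab7b, which promotes the degradation of Toll-like receptors in macrophages, had 9.54, 9.55 and 9.54. Rab9, which returns mannose 6-phosphate receptors to the Golgi, had 8.88, 8.87 and 8.88, whereas Rab9b (5.50, 5.50 and 5.45) lay below the limit in all arrays.

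Rab20 and Rab34 act on the maturing phagosome. Rab20 had 7.77, 7.82 and 7.91 in replicates 1, 2 and 3, and Rab34 had 7.21, 7.28 and 7.21. Rab12, which sends transferrin receptors to lysosomes, had 9.39, 9.49 and 9.57. Rab24, linked to autophagy, had 7.90, 7.93 and 7.90. All 4 were above both background limits.

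The Rabs of lysosome-related organelles and secretory granules had the lowest share of the 6 groups, 8 of 12 (66.7%), near the 60.5% of all genes. Under the stricter limit 4 of 12 (33.3%) were left, against 46.2% of all genes, so the share lay above that of all genes with 1 limit and below it with the other. Rab3 proteins control regulated exocytosis in neurons and gland cells. Rab3d, the form known from mast cells and exocrine glands, had 7.64 in each array, whereas Rab3b (4.11 in each) and Rab3c (4.09, 4.09 and 4.14) were below background. Rab3a had 5.53, 5.53 and 5.60 and passed in replicate 3 alone. It lay just outside the limit, and Rab36 and Rab40b (5.67 each) lay just inside.

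Rab27a and Rab27b dock secretory granules and exosome-bearing compartments. Rab27a had 6.24, 6.16 and 6.02 and was above the first limit but not the stricter one, and Rab27b had 4.41 in each array. Rab32 and Rab38 direct cargo to melanosomes and related organelles, and Rab32 also restricts bacteria in macrophages. Rab32 had 7.60, 7.57 and 7.32, and Rab38 had 6.39, 6.39 and 6.23, so both were lowest in replicate 3. Rab29, which recruits the kinase LRRK2 to membranes, had 8.25, 8.27 and 8.44. Rab37 (6.56, 6.56 and 6.38), Rab44 (6.27 in each array) and Rab26 (5.85, 5.76 and 5.85), all tied to granule or vesicle secretion, were above background.

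Of the Rabs of the endoplasmic reticulum and Golgi, 12 of 15 passed, and 10 of 15 under the stricter limit. For all genes these shares were 60.5% and 46.2%. Rab1a (10.72, 10.59 and 10.70) and Rab1b (10.11, 10.02 and 9.93) carry vesicles from the endoplasmic reticulum to the Golgi. Rab2a, which acts between the same organelles, had 10.56, 10.52 and 10.61, with a second probe set at 9.71, 9.67 and 9.74, and Rab2b had 6.93 in each array. The Golgi Rabs Rab6a (9.89, 9.89 and 9.91) and Rab6b (6.61 in each) both passed, although Rab6b is best known from brain. Rab18, found on lipid droplets, had 7.99 in each array.

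Rab43, needed for cross-presentation by the mouse CD8+ dendritic cell subset, had 7.85, 7.94 and 7.94. Rab33b (6.76), which binds the autophagy protein ATG16L1, Rab33a (6.08), Rab19 (8.12) and Rab36 (5.67) had the same value in each array. Below background were Rab39 (5.18, 5.28 and 5.28), Rab39b (4.37 in each) and Rab30 (4.74 in each).

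All 5 Rabs of exocytosis, polarised transport and cilia passed, and 3 of 5 under the stricter limit, against 60.5% and 46.2% of all genes. Rab10, which delivers the lipopolysaccharide receptor to the macrophage surface, had 11.26, 11.26 and 11.33. Rab8a (10.46, 10.49 and 10.54) and Rab8b (11.19, 11.22 and 11.19) act in transport to the plasma membrane. Rab13, of epithelial junctions, and Rab23, an inhibitor of Hedgehog signalling, both had 5.95 in each array, equal to the last deposited digit. Of the remaining genes, Rab40c (7.92, 7.95 and 7.95), whose family joins ubiquitin ligases, Rab40b (5.67 in each) and Rab28 (6.97 in each) passed, and Rab42 (4.91 in each) did not.

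Genes that share a number encode close relatives, and 31 of the 59 fall into 14 such subfamilies. All members were above background in 10 of them, Rab1, Rab2, Rab4, Rab5, Rab6, Rab7, Rab8, Rab11, Rab33 and Rab40. The calls were mixed in 3, where Rab3d, Rab9 and Rab27a passed and their measured relatives did not, and in the Rab39 pair neither passed. Under the stricter limit Rab4a, Rab27a, Rab33a and Rab40b dropped out, which left Rab4, Rab33 and Rab40 mixed and no Rab27 gene above the limit. By the first limit 24 of the 31 genes in subfamilies passed, against 60.5% of all genes. Of the 28 genes that stand alone, 25 were above background. Whether probes of close relatives share targets was not tested.

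Regulators and effectors of Rabs were taken from a list of 128 genes, of which 124 were measured. Of these 112 (90.3%) were above background, against 60.5% of all genes. All 7 measured genes of prenylation and recycling passed, with Chm, a Rab escort protein, at 8.14, 8.14 and 8.19, its relative Chml at 5.92, 5.94 and 6.06 and Rabggta, a subunit of the Rab prenyl transferase, at 7.61 in each array. Of the exchange factors 32 of 34 passed. Rabgef1, which activates Rab5, had 7.83, 7.97 and 8.06, Rin2, another Rab5 activator, had 10.05 in each array and Rin1, of the same family, had 6.35 in each. The 2 below background were Dennd2c (5.03 in each) and Dennd5b (4.37 in each).

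Of the GTPase-activating proteins 31 of 33 passed. Tbc1d1, known for its part in glucose transporter traffic in muscle, had 8.38, 8.22 and 7.84. Tbc1d2, which acts on Rab7, had 6.73, 6.73 and 6.92, and Tbc1d2b had 10.01, 9.99 and 9.99. Tbc1d30 (5.31 in each) and Sgsm1 (5.40 in each) lay below background.

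Effectors passed in 43 of 51 cases. The early endosome tether Eea1 had 8.42, 8.54 and 8.71, the Rab5 effector Rabep1 had 7.59, 7.59 and 7.65, and Rabep2 had 6.25 in each array. The 8 not above background in every array included the myosins Myo5b (5.10 in each) and Myo5c (5.16 in each). They also included 4 genes of synaptotagmin-like proteins, which bind Rab27. Of these Sytl2 had 5.36, 5.28 and 5.23, and Sytl3 had 5.56, 5.44 and 4.997, so that it passed in replicate 1 alone. Sytl4, Sytl5, Exph5, another Rab27 effector, and Rims1, a Rab3 effector of synapses, completed the 8.

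**Figure D3:**
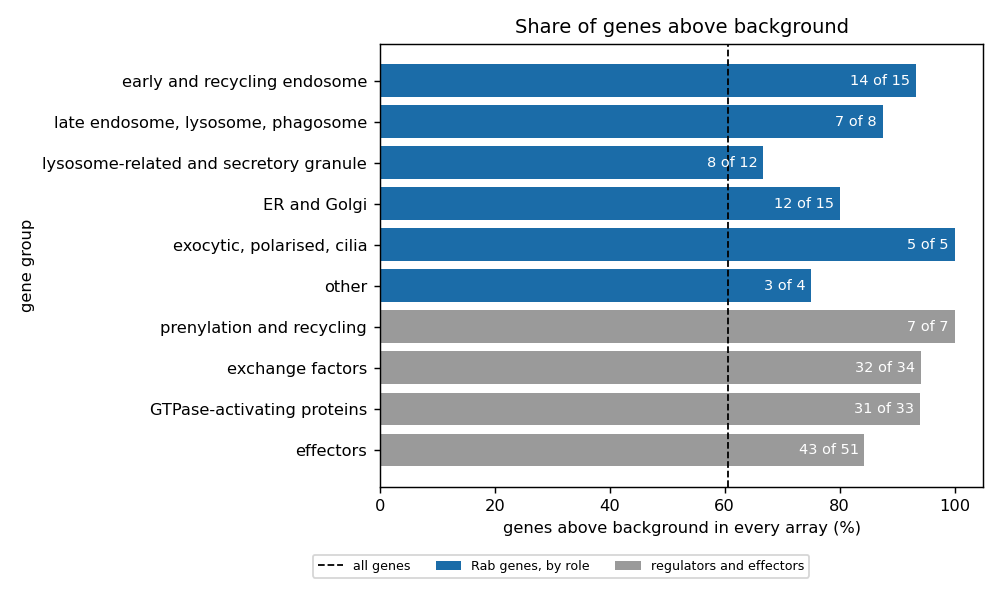
Share of genes above background in every array (x axis, percent) for 6 groups of Rab genes and 4 lists of their regulators and effectors, with the counts inside the bars and the 60.5% of all genes as a dashed line. The granule group (8 of 12) is nearest to the line, and the exocytic group and the prenylation list reach 100%.

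The spread of the Rab genes between the arrays was near that of genes in general. The span is the highest minus the lowest of the 3 log2 values. None of the 49 above background spanned 0.5 log2 units or more (1.41-fold), against 2.61% of all genes above background, a share that in 49 genes comes to 1.28. A span of 0.3 was reached by 1 of the 49, against 6.41% of all, and a span of 1 by 0, against 0.497%. The deposited values limit what this says, because 20 of the 49 (40.8%) had identical values in all 3 arrays, against 46.5% of all genes above background, and in another 14 values of 2 arrays were equal. An SD of 0 is then no measure of precision. The median span was 0.016 log2 units over the 49 Rab genes and 0.0096 over all genes above background. Values differed between all 3 arrays in 15 of the 49 (30.6%), against 25.1% of all. Over these 15 the median span was 0.135 log2 units, against 0.168 over all genes above background with 3 different values.

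Rab35, which recycles cargo from endosomes and acts in phagocytosis, had the largest span of the 49. It had 9.60, 9.55 and 9.16 in replicates 1, 2 and 3 (mean 9.44 ± 0.24, SD, n = 3), a span of 0.44 log2 units or 1.36-fold. Replicate 3 was the low array, and 3.29% of all genes above background spanned as much. Rab32 followed with a span of 0.29 (SD 0.16, n = 3) and Rab27a with 0.22 (SD 0.11, n = 3), both lowest in replicate 3. Rab29 (8.32 ± 0.11, SD, n = 3) and Rab12 (9.49 ± 0.09, SD, n = 3) were highest in replicate 3, with spans of 0.19 and 0.18.

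Replicate 3 was the lowest array for 8 of the 49 genes (16.3%), against 20.2% of all genes above background. These were Rab35, Rab32, Rab27a, Rab1b, Rab37, Rab38, Rab11b and Rab4b. It was the highest for 9 (18.4%), against 19.4%, namely Rab29, Rab12, Rab14, Rab20, Rab8a, Rab2a, Rab10, Rab6a and Rab22a. Of the 8 genes low in replicate 3, 4 belong to the granule group, which holds 8 of the 49 genes. Under the stricter limit 6 genes were lowest in replicate 3, 2 of them of the granule group. Averaged over the 49 genes, the deviation from the 3-array mean was 0.0045, 0.0027 and -0.0072 log2 units in replicates 1, 2 and 3, against 0.0077, 0.0019 and -0.0096 over all genes above background.

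**Figure D4:**
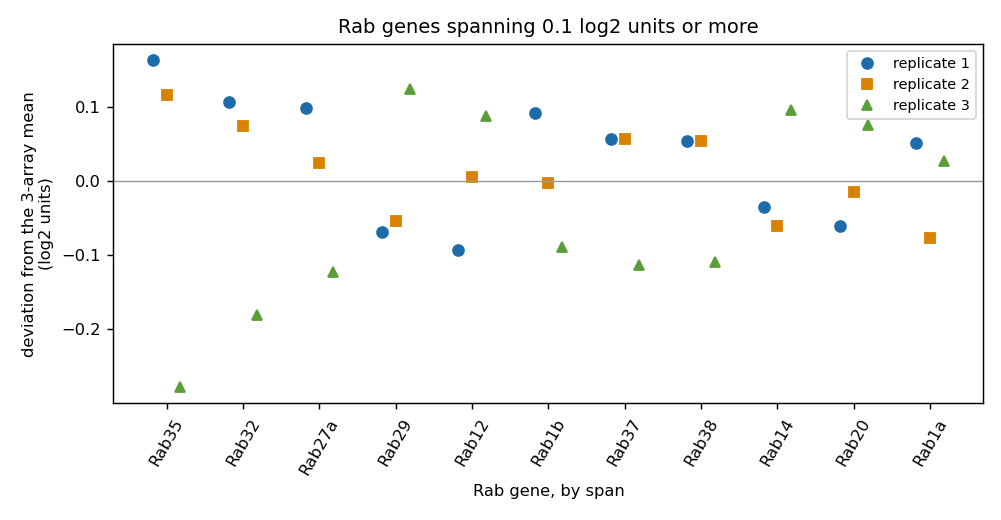
Deviation from the 3-array mean in log2 units (y axis) for the 11 Rab genes above background that span 0.1 log2 units or more (x axis, by span), with 1 marker per array. Replicate 3 is the lowest for Rab35, Rab32, Rab27a, Rab1b, Rab37 and Rab38 and the highest for Rab29, Rab12, Rab14 and Rab20.

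Markers of other cells and programs differed between the arrays too. The 11 T and NK cell markers above background averaged 8.72, 8.41 and 7.78 log2 units in replicates 1, 2 and 3. All 11 were lowest in replicate 3, and Cd2, Ncr1 and Klrd1 were not above background in every array. The 19 cell cycle genes averaged 7.85, 7.60 and 7.11, with 17 lowest in replicate 3. The 4 mast cell and basophil markers above background of 10 averaged 6.70, 6.83 and 6.08, and Cpa3, Mcpt8, Ms4a2, Fcer1a, Kit and Mcpt4 were not above it in every array. Cpa3 (7.38, 7.54 and 5.38) and Mcpt8 (5.88, 5.97 and 4.68) passed in replicates 1 and 2 and not in replicate 3. The rule thus removed markers by the same difference that the average describes. All 7 megakaryocyte and platelet markers were above background and averaged 7.90, 7.77 and 7.47, with 3 lowest in replicate 3. The dendritic cell (10.17, 10.24 and 10.19), macrophage (9.77, 9.70 and 9.65) and osteoclast (9.97, 9.97 and 9.91) markers above background differed less. The hypoxia genes went the other way, with 11 of 12 above background at 9.35, 9.56 and 9.73 and 9 highest in replicate 3. The 4 of 11 stromal markers above background averaged 6.32, 6.18 and 6.20, with 0 lowest in replicate 3. Dcn (8.12, 5.36 and 5.41) and Sparc (7.64, 5.34 and 5.78) were highest in replicate 1 and not above background in every array. Over all genes, 60.5% were above background, and of those 20.2% were lowest and 19.4% highest in replicate 3. Rab27a serves granule release in T and NK cells, and the part of these cells in the lower Rab35, Rab32 and Rab27a values was not tested.

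Among the regulators and effectors above background, 1 of 112 (0.893%) spanned 0.5 log2 units or more, against 2.61% of all genes above background. This was Tbc1d1, with a span of 0.54 (1.45-fold) and its lowest value in replicate 3. Replicate 3 was lowest for 21 of the 112 and highest for 29, beside the 20.2% and 19.4% of all genes above background. Effectors alone had 2 lowest and 13 highest in replicate 3, with mean deviations of -0.017, -0.0017 and 0.019. Of these 43 effectors 24 had identical values in the 3 arrays, against 46.5% of all genes above background. Exchange factors had 9 lowest and 6 highest in replicate 3, and GTPase-activating proteins 9 and 7. Genes of prenylation and recycling had 1 and 3. The mean deviations of these 3 lists in replicate 3 were -0.010, -0.0017 and 0.021.

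**Figure D5:**
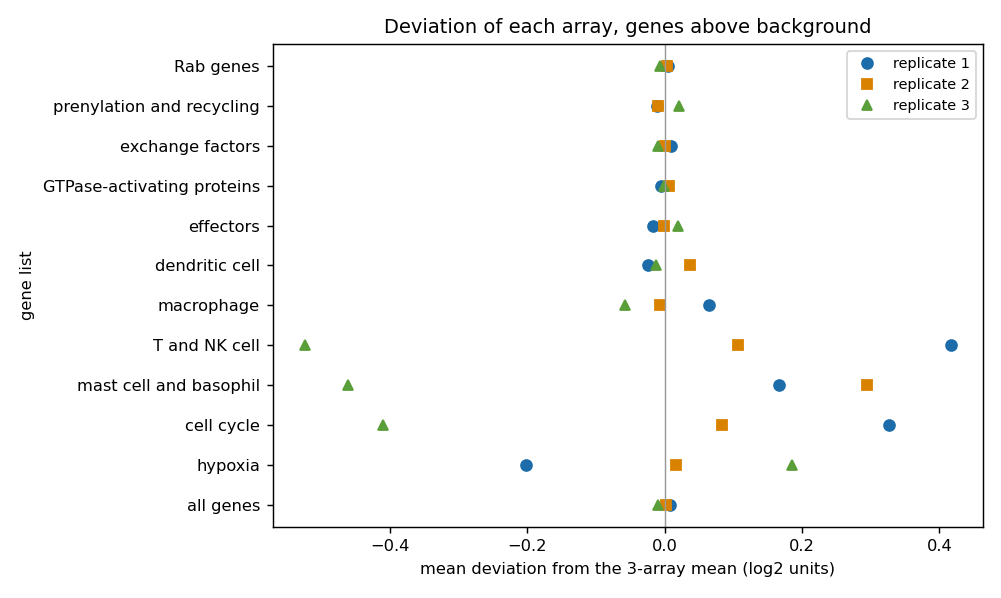
Mean deviation from the 3-array mean in log2 units, per array (x axis), over the genes above background of each list (y axis). Genes that fell below the limit in any array are left out. The Rab genes and their regulators and effectors lie within 0.03 of 0 in each array, whereas the T and NK cell list runs between 0.42 in replicate 1 and -0.52 in replicate 3.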

How the data were processed

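Total RNA (150 ng per sample) of 3 mouse dendritic cell samples was amplified, labelled with biotin and hybridised to 1-colour arrays, per the labels' protocols. Per the submitters' processing notes, the authors used RMA for the deposited log2 values, a method that corrects background, quantile normalizes and summarizes probes by median polish. No software version or genome build is given in the sources used here. Of 35556 probe sets, 21789 name 1 gene in the platform annotation, and each gene took the one with the highest mean. The 62 Rab probe sets gave 59 genes, all matched to RefSeq by Entrez ID with 0 symbols changed. Counts were made in Python 3.11.15 with pandas 2.3.3 and tested on simulated data. The simulated levels lay far from the limit and held no ties, so calls near the limit and tied values were not checked. With 1 group there was no test, and shares are given beside those of all genes. The number of arrays limits the precision. Rab genes, roles, gene lists and motifs were chosen with earlier results of these data known, and the motifs and the promoter windows after the array values were seen. Every Rab gene could be named. Of each regulator list, the first 3 measured genes, up to 4 going against their list and those spanning 0.5 log2 units were named, and of the marker lists the first 2 could be. Marker and effector genes beyond these, listed as not above background, were named after their values were seen. Promoters came from the RefSeq table (GRCm38.p6), using the first listed start.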

Additional observations from a re-analysis of the deposited data

Results flagged for a closer look

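Probe sets of Rab genes that were not used for their gene also lay above background in every array, and they are given as values. The second probe set of Rab11b averaged 6.00 log2 units, against 10.09 for the one used. That of Rab2a averaged 9.71, against 10.56 for the one used, and that of Rab5b 9.79, against 9.81. With the lowest probe set of each gene, 49 Rab genes were still above background, all of them among the 49 described.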

How the results depend on the processing

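The count of Rab genes above background (49) was within 37 to 50 under the 9 alternatives tried, and that of regulators and effectors (112) within 98 to 112. With each replicate left out in turn the counts were 49 and 112 each time. At the stricter limit 4 of 12 genes of the granule group passed, against 8 of 12, and 3 of 5 of the exocytic group, against 5 of 5. With the call on the mean, Rab3a joined the Rab genes. No Rab gene spanned 0.5 log2 units with no background filter, with another choice of probe set or with the arrays centred on their median. Stricter limits, a replicate left out or a span limit of 1 could not raise the count of 0 and so did not check it. With 0.3 log2 units as the limit there was 1, Rab35, against 6.41% of all genes above background. The number with replicate 3 highest moved to 37 when each array was centred on the median of the genes above background. These medians differed by 0.018 log2 units, which broke the ties of identical values, so that count rests on ties. The number with replicate 3 lowest stayed at 8 there. Without replicate 2 or 1 it was 10 to 13, and the number highest was 12 to 13. With 2 arrays replicate 3 need only lie below or above 1 other, so these counts could not fall. The shares of all genes with 2 arrays were not counted. No paired analysis was possible because there is 1 group. Scanner intensities were not used here, so signal over the local background was not assessed.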

Other observations

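Different Rab genes shared 1 deposited value to the last digit. Rab13 and Rab23 had 5.95 log2 units in each array, and Rab36 and Rab40b had 5.67 in each. Over the whole table, 44.8% of the probe sets had the same value in the 3 arrays.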
